A study of Mus musculus with 6 samples.

Results

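The genes described here are 9 genes of voltage-gated potassium (Kv) channels, out of 54232 genes in the table: Kcng4, Kcng2, Kcnv2, Kcnd2, Kcnd3, Kcna5, Kcnq1, Kcnh2 and the accessory subunit gene Kcnip2. They were taken by gene symbol. Kcng4 was selected on its values in this same comparison, since no wild-type library held a read of it, so its values are given as a description with no test. All of the 9 genes were in the table.

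RNA was sequenced from cardiomyocytes of adult male mice, taken 4 h after plating on laminin, in 3 libraries per strain that come from separate isolations. Uty GT mice carried the gene trap Uty Gt(XS0378)Wtsi, a splice acceptor with a stop codon in the fourth intron of Uty on the Y chromosome, made in 129P2/OlaHsd embryonic stem cells and backcrossed to C57BL/6J. WT mice were C57BL/6J males with the same 129P2 Y chromosome without the trap. Both strains were otherwise untreated, and every cell of a Uty GT mouse carried the trap, so the comparison is not limited to cardiomyocytes in the animal.

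A Kv channel is built from pore-forming alpha subunits that open when the membrane depolarizes and let potassium leave the cell, which ends the cardiac action potential. In mouse ventricle, Kcnd2 and Kcnd3 (Kv4 subunits, with the accessory protein of Kcnip2) carry the fast transient outward current, Kcna5 carries a slower outward current, and Kcnq1 and Kcnh2 encode the subunits of the slow and rapid delayed rectifiers. Kcng4, Kcng2 and Kcnv2 belong to the silent or modulatory subunits, which do not form channels of their own and instead assemble with other alpha subunits.

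The coding bases around the potassium selectivity filter of 6 members are shown because they encode a part of the pore that the pore-forming members have in common. The capitals mark the 15 bases of the filter codons, in windows of 45 bases read 5′ to 3′ from the annotated transcripts (GENCODE M21, GRCm38). In Kcng4 the filter begins at codon 416 of 506.
Kcng4: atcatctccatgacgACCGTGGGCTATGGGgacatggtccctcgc
Kcnv2: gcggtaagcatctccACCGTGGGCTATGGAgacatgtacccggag
Kcnd2: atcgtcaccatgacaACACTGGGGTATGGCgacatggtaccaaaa
Kcna5: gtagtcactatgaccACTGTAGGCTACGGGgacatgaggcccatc
Kcnq1: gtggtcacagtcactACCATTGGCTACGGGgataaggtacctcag
Kcnh2: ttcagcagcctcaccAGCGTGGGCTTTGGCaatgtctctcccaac
The filter of Kcng4 shared 14 of 15 bases with Kcnv2, 12 with each of Kcna5, Kcnq1 and Kcnh2, and 11 with Kcnd2. Over the whole window, from 25 bases (Kcnh2) to 33 bases (Kcnd2) of 45 were the same as in Kcng4. None of the 3806 windows of 50 bases in Kcng4 transcripts, the length of a read, occurred in another annotated gene, and the same held for Kcnd2, Kcnip2, Kcnh2 and Kcnv2. The share of such windows found in another gene was 4.36% for Kcng2 (with D330025C20Rik), 2.81% for Kcna5 (with Gm26673), 1.94% for Kcnq1 (with Kcnq1ot1) and 1.21% for Kcnd3 (with Kcnd3os). The paper names a stranded library kit for these cardiomyocytes, but the strand setting of the read counting was not given in the sources used here. Whether reads at the shared bases of Kcng2, Kcnq1 and Kcnd3 were counted by strand is therefore not known, and the counts cannot be assigned to a single gene of a pair. Gm26673 (chr6:126718684-126741601) does not overlap Kcna5 (chr6:126532551-126535412). Reads at their shared bases depend on the treatment of multiply mapped reads, which was not given either. Gm26673 had no read in any of the 6 libraries.

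Values are normalized counts, the reads of a gene divided by the size factor of the library, and are comparable between libraries for one gene. Levels of different genes were compared per kilobase (kb) of annotated exon. Assigned reads ranged from 28283654 to 48377453 in Uty GT libraries and from 32397035 to 48044445 in WT libraries. Mitochondrial genes took 39.8% to 44.8% of them in Uty GT libraries and 46.9% to 54.7% in WT libraries. The library Uty GT f stood apart in breadth, with 28619 genes detected and 781 of 1967 olfactory and vomeronasal receptor genes with a read, against 102 to 174 such receptor genes in the other 5 libraries. The label check held: Uty had 13.9, 10.5 and 8.03 normalized counts in Uty GT libraries, against 1093, 1017 and 877 in WT libraries. Ddx3y, the neighbouring helicase gene, had 429, 289 and 176 in Uty GT libraries, against 2244, 2368 and 2217 in WT libraries, and Eif2s3y had 821, 720 and 579, against 158, 172 and 166, so the trap lines are not a model of Uty alone. The 10 cardiomyocyte markers were all well covered, the lowest at a mean of 13063 normalized counts.

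Kcng4, which encodes a silent subunit that modulates other Kv channels, had 29.1, 19.9 and 20.7 normalized counts in Uty GT libraries d, e and f, against 0 in each of WT libraries e, f and g. These stood for 44, 17 and 18 reads in Uty GT libraries (exact Poisson 95% intervals 32.0 to 59.1, 9.90 to 27.2 and 10.7 to 28.4) and for no read among 118583130 assigned reads of the WT libraries together. The interval of a count of 0 reaches 3.69 reads, and intervals and floors cover counting error only. Uty GT library d, with the most reads of the gene, had 48377453 assigned reads, and WT library g, with none, had 48044445. Set against a floor of 3 reads in each WT library, a mean of 3.16 normalized counts, the Uty GT mean of 23.2 ± 5.11 (SD, n = 3) was 7.34-fold the floor. This ratio leaves out the counting error of the Uty GT reads and is not a confidence bound. Scaled to 1000000 assigned reads, the Uty GT libraries held 0.910, 0.553 and 0.636 reads. That level was low among channel genes: per kb, Kcng4 reached 0.769%, 0.471% and 0.536% of Kcng2, another silent subunit gene, in Uty GT libraries d, e and f. Kcng4 passed the filter on low values only through the Uty GT libraries. In bulk RNA, few cells with much Kcng4 and many cells with little cannot be told apart.

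**Figure D1:**
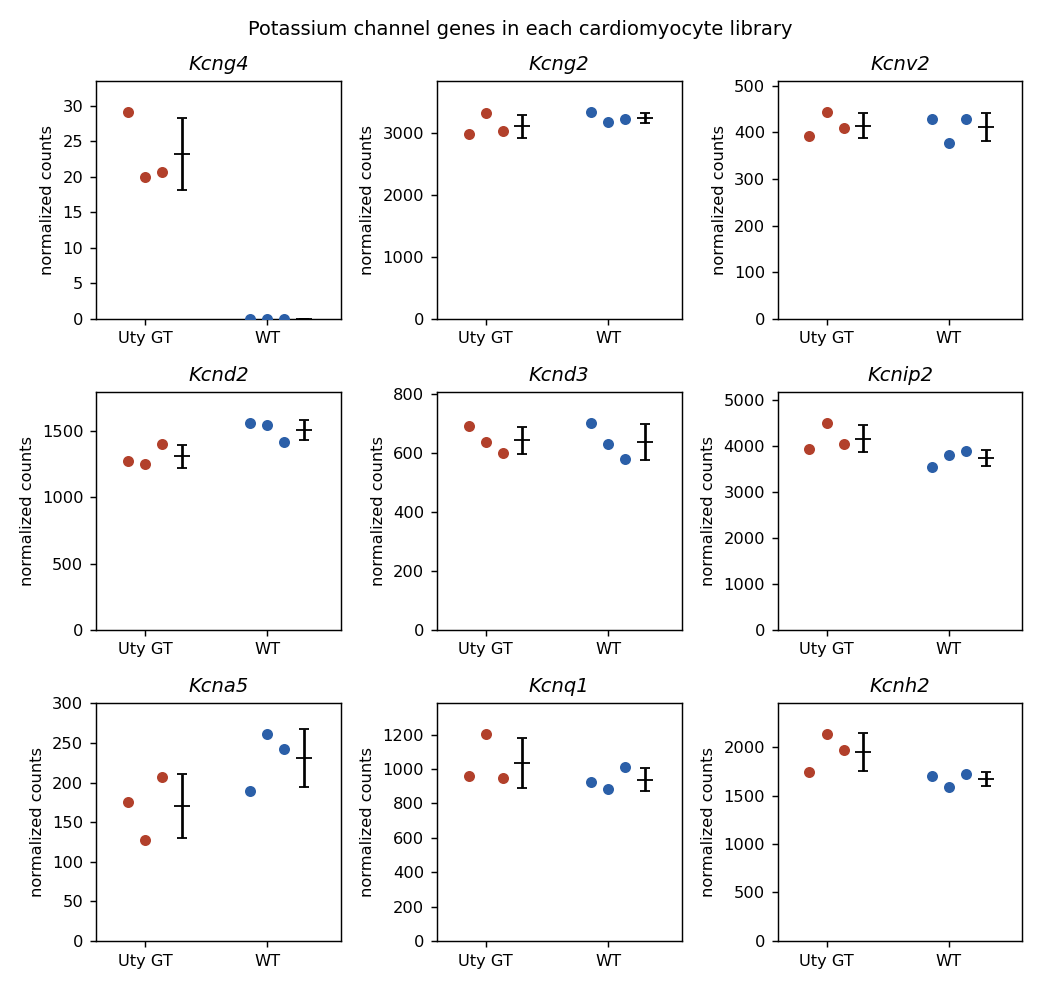
Normalized counts (vertical axes, from 0) of the 9 potassium channel genes in the 3 Uty GT libraries (red, left) and the 3 WT libraries (blue, right), each dot a library, with the mean and SD of each group in black. Kcng4 is at 0 in all WT libraries and between 19.9 and 29.1 in Uty GT libraries, while the other 8 genes were not called.

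Among all genes, 27652 had no read in any WT library. Of these, 7639 had at least 1 read in Uty GT libraries and 160 had a read in all 3 of them. Kcng4 had the most, 79 reads. The next were the pseudogenes Gm12895 and Gm12896, with 30 reads each, all of them in Uty GT library d. Among genes with reads in all 3 Uty GT libraries the next were Gm43916 with 8, 8 and 5 reads and C130051F05Rik with 12, 4 and 5 reads. Just outside the rule, with 1 WT read in all, Kif15 had 12, 2 and 12 reads and Gm49476 had 4, 9 and 10 reads in Uty GT libraries d, e and f. In the opposite direction, 22384 genes had no Uty GT read, 73 of them with a read in every WT library, and the gene with the most WT reads was Csf2, a haematopoietic cytokine gene, with 11, 19 and 20 reads in WT libraries.

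**Figure D2:**
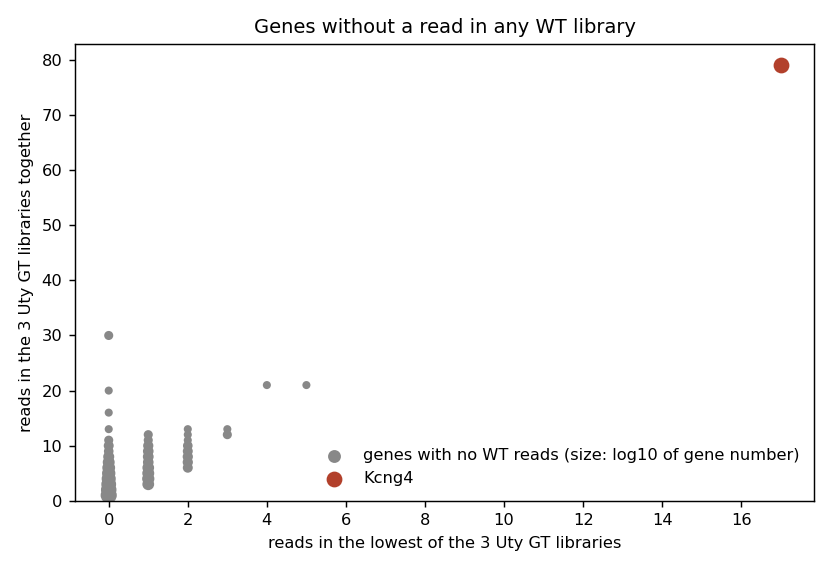
Genes without a read in any WT library, by reads in the lowest of the 3 Uty GT libraries (horizontal axis) and reads in the 3 together (vertical axis); grey dots are sized by the log10 of the number of genes at that point, and Kcng4 is red. Kcng4 lies at 17 and 79 reads, and no other gene is above 5 and 30.

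Kcng4 lies on the minus strand at chr8:119623854-119635680 (GRCm38), and 10 annotated genes lie within 100 kb of it. Of these, 5 passed the filter and none was called. Among all tested genes 10.7% were called, and the groups did not overlap for 31.9%. Mbtps1, a membrane-bound protease gene, had 812, 801 and 824 normalized counts in Uty GT libraries and 807, 719 and 736 in WT libraries (log2 fold change 0.11 ± 0.08 SE, limma adjusted p = 0.380). Wfdc1, which encodes a secreted protein and starts 30.7 kb from the Kcng4 start, had 193, 218 and 204 in Uty GT libraries and 160, 160 and 183 in WT libraries, without overlap (0.29 ± 0.12, limma adjusted p = 0.133). Hsdl1, Taf1c and the long non-coding RNA gene Gm32352 overlapped between the strains. Adad2, 6.93 kb beyond the end of Kcng4 and the nearest of the 10, had no read in Uty GT libraries and 1 read in a WT library. Of the other 4 below the filter, Dnaaf1 had 3 reads in Uty GT library f and none elsewhere, and Gm45747 had no read in any library.

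The 250 bases before the Kcng4 start are shown because they are the sequence next to the start of the gene that had no WT reads (RefSeq, GRCm38.p6, chr8:119635681-119635930, minus strand, read 5′ to 3′). The capitals mark a CCAAT and a CANNTG motif.
Kcng4 promoter: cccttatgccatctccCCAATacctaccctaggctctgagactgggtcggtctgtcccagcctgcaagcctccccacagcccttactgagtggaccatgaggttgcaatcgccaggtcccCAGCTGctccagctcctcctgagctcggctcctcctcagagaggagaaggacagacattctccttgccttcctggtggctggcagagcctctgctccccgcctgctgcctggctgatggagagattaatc
The CCAAT match began 234 bases and the CANNTG match 130 bases before the start. A TATAAA box, the CRE letters TGACGTCA, the AP-1 letters TGANTCA and the GC box letters GGGCGG had no match in this window on either strand. Of 32851 promoters of the same length, 33.9% held CCAAT, 66.2% CANNTG, 32.7% GGGCGG, 12.4% TATAAA, 6.75% TGANTCA and 1.55% TGACGTCA. The window was 60.4% G and C, against a median of 52.4% over all of them.

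The genes whose log2 values followed Kcng4 most closely over the 6 libraries, among 13874 other tested genes, were Ucp2 (Pearson r = 0.999), Nfatc2 (0.998), Pcdhb14 (0.997), Rasgef1b (0.995) and Klf11 (0.995). Each was higher in all 3 Uty GT libraries than in any WT library, which is what a gene at 0 in one strain selects for, and 31 genes had a coefficient above 0.98. Ucp2, a mitochondrial carrier gene, had 953, 879 and 884 normalized counts in Uty GT libraries, against 573, 577 and 568 in WT libraries. Klf11, a zinc finger factor gene, had 446, 403 and 443, against 205, 217 and 223. The 6 points share 2 strains, and the coefficients are a description only.

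None of the other 8 members was called between the strains at an adjusted p of 0.05 (limma on log2 of normalized counts plus 1, adjusted over 13875 tested genes). Of all tested genes, 10.7% were called, 4.55% higher and 6.12% lower in Uty GT. At an unadjusted p under 0.05 there were 3 of the 8 members (Kcnh2, Kcnd2 and Kcna5), against 28.2% of all tested genes, and edgeR and DESeq2 also called none. The 8 fold changes ranged from -0.45 to 0.22 on the log2 scale, 5 positive and 3 negative, with a median of 0.01, against 0.00 over all tested genes. The groups did not overlap for 3 of the 8, or 37.5%, against 31.9% of all tested genes.

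Neither of the other silent subunit genes was called. Kcng2, the more abundant, had 2971, 3317 and 3025 normalized counts in Uty GT libraries and 3334, 3179 and 3222 in WT libraries. The fold change was -0.07 ± 0.07 (SE, limma adjusted p = 0.552), with a 95% interval for the difference from -13.4% to 5.45%. Kcnv2 had 392, 444 and 408 in Uty GT libraries and 429, 377 and 429 in WT libraries (0.01 ± 0.09, limma adjusted p = 0.953, interval -12.6% to 16.3%). The groups overlapped for each of these genes. D330025C20Rik, annotated on the other strand across the Kcng2 start, had 267, 306 and 275 in Uty GT libraries and 408, 312 and 385 in WT libraries (limma adjusted p = 0.0602).

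None of the 3 genes of the fast transient outward current passed the test, and their fold changes differed in sign. Kcnd2, the main Kv4 subunit gene of mouse ventricle, had 1271, 1250 and 1404 normalized counts in Uty GT libraries, all below 1559, 1546 and 1416 in WT libraries. The difference was -0.20 ± 0.07 (SE), or 86.8% of the WT mean, and did not pass the threshold (limma adjusted p = 0.0942, interval -22.4% to -2.96%). Kcnd3, its Kv4 relative, had 691, 638 and 598 in Uty GT libraries and 701, 628 and 578 in WT libraries, an almost complete overlap (0.02 ± 0.09, limma adjusted p = 0.928, interval -12.1% to 16.4%). Kcnip2, which encodes the accessory protein KChIP2 that carries Kv4 channels to the membrane, had 3937, 4496 and 4038 in Uty GT libraries, all above 3549, 3797 and 3889 in WT libraries. Its difference was 0.15 ± 0.07 (limma adjusted p = 0.186, interval -0.230% to 23.2%).

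Each library gave its own ratio of the Kv4 genes. Per kb, Kcnd2 over Kcnd3 was 3.42, 3.64 and 4.37 in Uty GT libraries and 4.14, 4.58 and 4.56 in WT libraries, and the groups overlapped. The mean log2 difference was -0.22 (exact two-sided permutation test, p = 0.2, where 3 libraries against 3 cannot go below 0.1). Kcnip2 over the sum of both Kv4 genes was 3.55, 4.18 and 3.47 in Uty GT libraries, against 2.72, 2.99 and 3.34 in WT libraries, without overlap. That ratio was chosen after the levels were seen and carries no test.

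**Figure D3:**
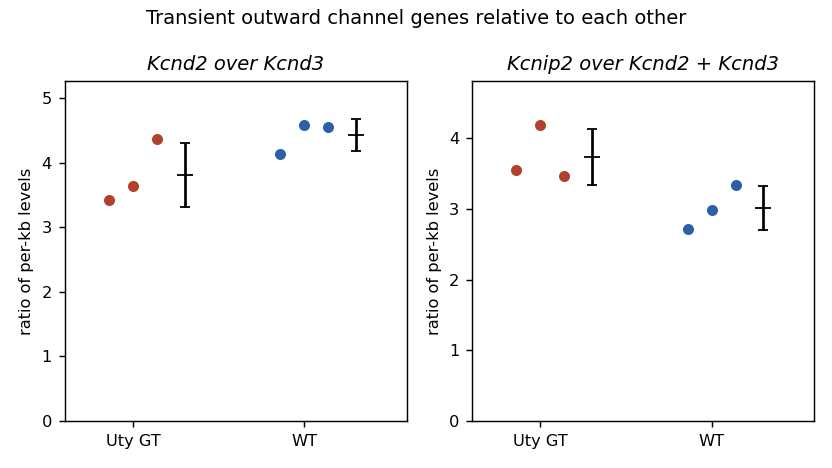
Ratio of per-kb levels (vertical axes, from 0) in each library, Uty GT in red on the left and WT in blue on the right, with the mean and SD of each group: Kcnd2 over Kcnd3 in one panel and Kcnip2 over Kcnd2 plus Kcnd3 in the other. Kcnd2 over Kcnd3 is at 3.42 to 4.37 in Uty GT and 4.14 to 4.58 in WT, and Kcnip2 over both is at 3.47 to 4.18 in Uty GT and 2.72 to 3.34 in WT.

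Kcna5, which encodes a subunit of an ultrarapid, slowly inactivating outward current, had 175, 128 and 208 normalized counts in Uty GT libraries and 190, 261 and 242 in WT libraries. Its mean was 73.7% of the WT mean, the largest fold change in size among the 8, and Uty GT library e was the lowest of the 6. The groups overlapped and the difference did not pass (-0.45 ± 0.18, limma adjusted p = 0.119, interval -44.1% to -4.56%). Leaving out 1 library at a time gave -0.61 to -0.26, the smallest without Uty GT library e. With no filter on low values the same fold change had an adjusted p of 0.0174.

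Of the delayed rectifier genes, Kcnh2, the ERG subunit gene, had 1739, 2131 and 1967 normalized counts in Uty GT libraries, against 1701, 1583 and 1722 in WT libraries, so that the lowest Uty GT value lay just above the highest WT value. The difference was 0.22 ± 0.08 (limma adjusted p = 0.103, interval 2.91% to 31.4%). Kcnq1 had 959, 1203 and 947 in Uty GT libraries and 925, 883 and 1010 in WT libraries, with Uty GT library e apart from the rest (0.13 ± 0.10, 0.02 without that library, limma adjusted p = 0.398, interval -5.33% to 27.4%). Kcnq1ot1, the antisense transcript from within Kcnq1, had 549, 326 and 524 in Uty GT libraries and 424, 407 and 388 in WT libraries (limma adjusted p = 0.554). Kcne1, which encodes the accessory subunit that slows Kcnq1 channels, had 112, 93.7 and 65.4 in Uty GT libraries and 68.6, 53.7 and 51.7 in WT libraries (0.61 ± 0.22, limma adjusted p = 0.0897). It was called without Uty GT library f, at 0.82 (limma adjusted p = 0.0305). Kcnq1 over Kcne1, per kb, was 6.74, 10.1 and 11.4 in Uty GT libraries and 10.6, 12.9 and 15.4 in WT libraries, with overlap.

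By level per kb, over all 6 libraries, the order of mean levels was Kcnip2, Kcng2, Kcnh2, Kcnd2, Kcnq1, Kcnv2, Kcna5, Kcnd3 and Kcng4. The accessory gene Kcnip2 had 1196 ± 85.7 per kb in Uty GT libraries and 1077 ± 50.7 in WT libraries (SD, n = 3 each), and Kcng2 had 1039 ± 62.2 and 1086 ± 26.8. The ranges over the 6 libraries overlapped for Kcnip2 and Kcng2, for Kcnd2 and Kcnq1, for Kcnv2 and Kcna5 and for Kcna5 and Kcnd3, so these neighbours in the order were not separated. Kcng2 stood apart above Kcnh2, Kcnh2 above Kcnd2, Kcnq1 above Kcnv2 and Kcnd3 above Kcng4 in all 6 libraries. The 8 pore-forming members made up 86.4% to 87.4% of the per-kb level of all pore-forming Kv genes in Uty GT libraries and 86.5% to 87.7% in WT libraries. Kcng2 alone made up 41.8% on average in Uty GT and 43.4% in WT.

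**Figure D4:**
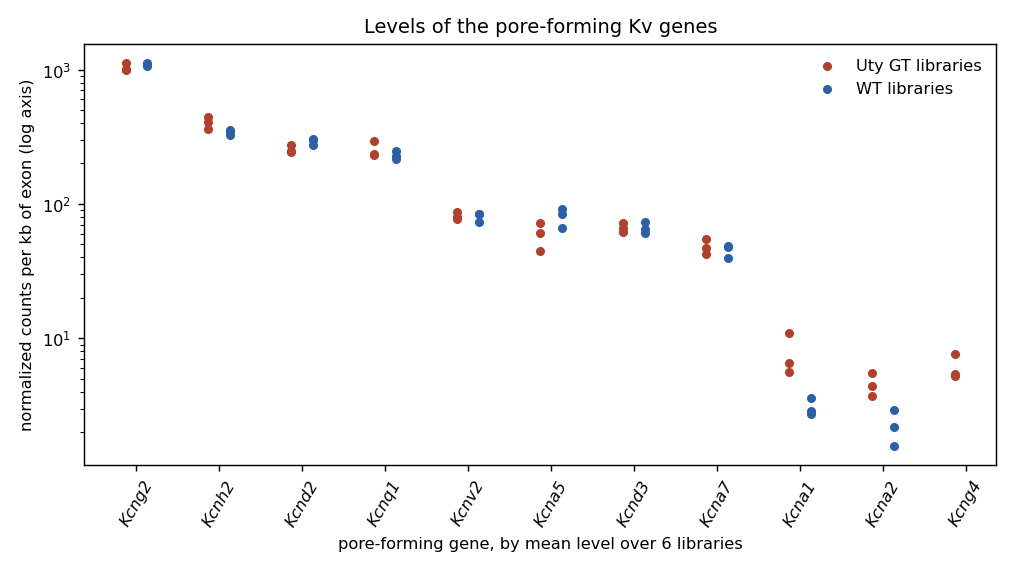
Normalized counts per kb of exon (log axis) of the 11 pore-forming Kv genes described here, in the order of their mean level, each dot a library, Uty GT in red left of WT in blue; libraries at 0 are not drawn. Kcng2 is highest, at about 1039 in Uty GT and 1086 in WT, and Kcng4 has dots for Uty GT libraries only.

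Among all 40 pore-forming Kv genes, 18 besides Kcng4 passed the filter, and 21 did not. Of these 18, 2 rose and 1 fell (16.7% called, against 10.7% of all tested genes), and the groups did not overlap for 7 (38.9%, against 31.9%). Kcna1, a Kv1 subunit gene known from axons, had 31.1, 26.9 and 52.8 normalized counts in Uty GT libraries, against 17.1, 13.7 and 13.1 in WT libraries (1.23 ± 0.31, limma adjusted p = 0.0280). Kcna2, its close relative, had 52.9, 44.5 and 65.4, against 26.3, 18.7 and 34.7 (1.03 ± 0.27, limma adjusted p = 0.0312). The groups did not overlap for either. Uty GT library f was the highest for both, and without it neither was called (Kcna1 0.94, adjusted p = 0.0890, and Kcna2 0.89, adjusted p = 0.0862). Without WT library e or f neither was called, with adjusted p from 0.0697 to 0.121. Without Uty GT library d the adjusted p were 0.0573 (Kcna1) and 0.0780 (Kcna2), and without WT library g it was 0.0757 for Kcna1. The fold changes kept their signs in each of these fits.

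Kcna7, another Kv1 subunit gene, had 92.6, 121 and 102 normalized counts in Uty GT libraries and 86.9, 105 and 106 in WT libraries, with overlap (0.08 ± 0.16, limma adjusted p = 0.783).

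Of 14 accessory subunit genes listed, 13 were matched by symbol and 4 passed the filter, Kcnip2, Kcne1, Kcne4 and Kcnab1. None was called by limma, with 3 of the 4 at an unadjusted p under 0.05, against 28.2% of all tested genes; edgeR called Kcnab1 and DESeq2 none. Their median fold change was 0.38, with 3 positive and 1 negative. The negative one, Kcne4, had 26.5, 26.9 and 32.1 normalized counts in Uty GT libraries, against 46.9, 37.5 and 52.4 in WT libraries, without overlap (-0.65 ± 0.23, limma adjusted p = 0.0863). Kcnab1, a Kv1 beta subunit gene, had 15.2, 12.9 and 14.9 normalized counts in Uty GT libraries, against 5.71, 6.25 and 6.17 in WT libraries (1.12 ± 0.37, limma adjusted p = 0.0697). Kcnab1 is named here after its values were seen. With a WT mean of 6.04, it passed the filter only through the Uty GT libraries. Its test values, and its part in the counts and median above, are therefore a description only.

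Of 4 transcription factor genes listed as regulators of cardiac potassium channel genes, 2 rose and 0 fell, against 4.55% and 6.12% of all tested genes. A channel target is given below for Klf15 and Irx5 only. The list was chosen with earlier results of these data known, so the comparison of shares is a description only. Klf15, which activates Kcnip2 in mouse heart, had 334, 522 and 475 normalized counts in Uty GT libraries, against 274, 280 and 342 in WT libraries (0.55 ± 0.15, limma adjusted p = 0.0405). Its groups overlapped, Uty GT library d lying below the highest WT library. Irx4, a ventricular homeobox gene, had 697, 823 and 818, against 621, 576 and 661 (0.33 ± 0.09, limma adjusted p = 0.0397). Irx5, which represses Kcnd2 in mouse heart, had 321, 315 and 194 in Uty GT libraries and 277, 270 and 272 in WT libraries (-0.02 ± 0.17, limma adjusted p = 0.965). Irx3 had 720, 707 and 599 in Uty GT libraries and 717, 719 and 898 in WT libraries (-0.20 ± 0.11, limma adjusted p = 0.241). Of the 6 fits that each left out 1 library, Irx4 was called only without Uty GT library d and Klf15 only without that library or WT library g, with adjusted p from 0.0509 to 0.164 (Irx4) and from 0.0619 to 0.162 (Klf15) in the others. Without a trend in the variance model neither was called, with an adjusted p of 0.158 for Klf15 and 0.135 for Irx4. Klf15 was also not called after quantile normalization (adjusted p = 0.0675) or with robust eBayes (adjusted p = 0.0509).

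**Figure D5:**
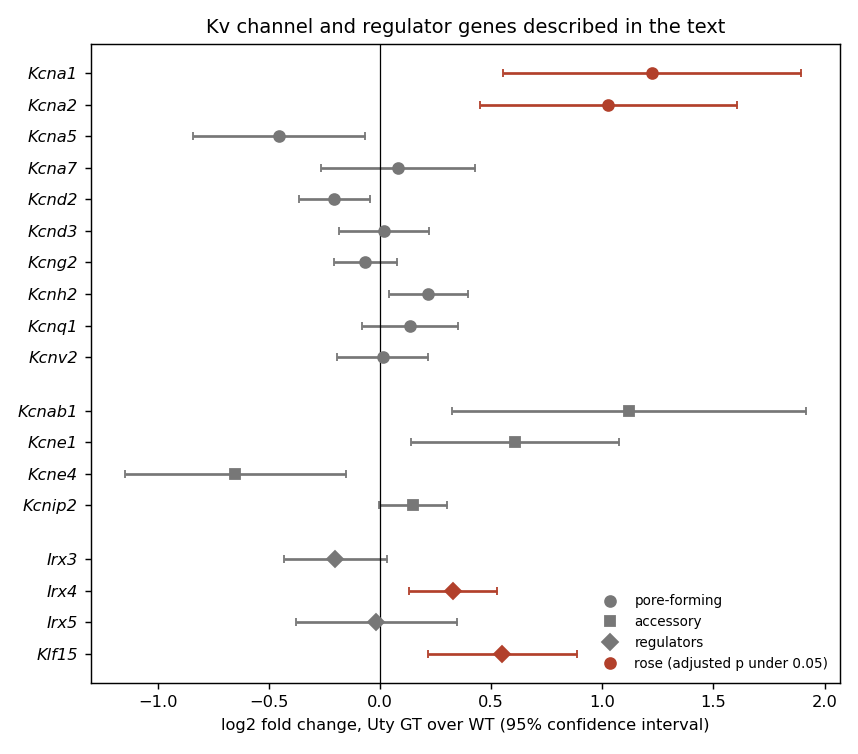
Log2 fold change of Uty GT over WT (horizontal axis) with 95% confidence intervals for the 10 pore-forming, 4 accessory and 4 regulator genes described here that passed the filter, Kcng4 left out; red marks genes that rose at an adjusted p under 0.05. Kcna1, Kcna2, Irx4 and Klf15 are red, while the intervals of the 8 tested members lie between -0.84 and 0.39.

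Markers of other cell types moved with the strains for some lists. The summed atrial markers (8 of 8 in the table) were 2331, 11885 and 7795 normalized counts in Uty GT libraries d, e and f, against 3104, 2602 and 2585 in WT libraries. 4 of the 8 rose and 2 fell, and Bmp10 was at 0 in 2 Uty GT libraries. Of all tested genes, 4.55% rose and 6.12% fell, the shares to set beside the calls of this list and of those below. In Uty GT library d, where the sum was lowest of all 6, Myl7, Myl4, Mybphl and Sln were nevertheless above every WT library. Nppa and Dkk3 lay within the WT range in that library, and Tbx5 and Bmp10 below it. Myl4 was 319 there, against 162 to 214 in WT libraries, and Tbx5 was 1113, against 1540 to 1891. The summed Schwann cell and neuron markers (8 of 8, of which 4, Snap25, Syt1 and Th among them, were at 0 in some library) were 57.4 to 91.8 in Uty GT libraries and 36.2 to 71.2 in WT libraries. The sums of smooth muscle and pericyte markers were 6666 to 10316 in Uty GT and 7638 to 8184 in WT, with 4 of 8 higher and none lower. Fibroblast sums were 3974 to 5515 and 3216 to 4804 (3 of 8 higher), endothelial sums 10882 to 17401 and 11411 to 13092 (2 of 8 higher), and macrophage sums 404 to 483 and 256 to 417 (2 of 8 higher), each in Uty GT and WT. Conduction markers summed to 1807 to 2042 in Uty GT, below 2508 to 2545 in WT (1 of the 4 tested lower). Skeletal muscle markers summed to 36717 to 47354 in Uty GT and 38388 to 42021 in WT (1 of the 3 tested lower). Cardiomyocyte marker sums were 1806550 to 1985860 in Uty GT and 1729200 to 1820030 in WT. The part of these other cell types in the values of Kcna1, Kcna2, Kcna5 and Kcng4 was not tested.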

How the data were processed

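RNA-Seq libraries from cardiomyocytes of 3 Uty GT and 3 WT isolations were analysed. Per the submitters' processing notes, the authors used CASAVA 1.4, STAR 2.5.1b, GRCm38, featureCounts 1.6.0 and DESeq2 1.22.2; the treatment of strand and of multiply mapped reads was not given in the sources used here. Labels call the RNA both total and cytoplasmic. The deposited signal values are reads divided by the authors' size factor for each library; all values came out as whole reads within a tolerance of 0.001. In the deposited table the authors also gave their comparison of the strains (log2 fold changes with errors, a test score, p-values and adjusted p-values), which was not used. Rows without a gene name (123) held 0.00343% of reads.

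Assigned reads ranged from 28283654 to 48377453. Genes whose mean reached 10 normalized counts were tested with limma 3.58.1 (R 4.3.3; log2 of normalized counts plus 1, trended eBayes, Benjamini-Hochberg over all 13875 genes, threshold 0.05), and fold changes are on that scale, which understates changes of low genes. edgeR 4.0.16 and DESeq2 1.42.0 on the recovered reads, other pseudocounts (0.5, 8), filters (1, 50, none), scalings, a replicate block and fits without each library were alternatives. The fitting script was tested on simulated data. A floor of 3 reads was used for counts of 0. Within a strain, no pair of libraries matched to within sampling noise (mean chi-square per gene from 10.1 to 50.0), and each counted as 1 replicate. Named were all 9 members, Uty, Ddx3y and Eif2s3y, family genes past the threshold and the 6 highest of the rest, genes within 100 kb of Kcng4 and the 5 genes most like it. Coordinates and exon lengths are from GENCODE M21 (54165 of 54232 identifiers matched). The members and gene lists were chosen with earlier results of these data known. Some items that these rules would name are not reported here.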

Additional observations from a re-analysis of the deposited data

How the results depend on the processing

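Without a trend in the variance model limma called 146 genes (76 higher, 70 lower in Uty GT), against 1481 (632 and 849) with it, with 0 pore-forming and 1 accessory gene, and edgeR called 1 accessory gene, Kcnab1 both times. A filter at a mean of 50 left 1 pore-forming call. With no filter 1004 genes were higher, and 1 member (Kcna5), 5 pore-forming genes and 1 accessory gene (Kcne1) were called. Scaled to 1000000 assigned reads, the Uty GT mean of Kcng4 was 8.98-fold the WT floor of 3 reads, against 7.34-fold. With mitochondrial genes left out of that scaling it was 7.46-fold. Leaving out 1 library at a time gave 408 to 2232 calls in all (164 to 1001 higher, 233 to 1231 lower), 0 to 3 pore-forming, 0 to 1 accessory and 0 member calls, and a Kcnd2 to Kcnd3 log2 difference from -0.32 to -0.15. Only the letters e and f are shared between strains, and whether same-letter isolations share a day was not given in the sources used here. With the letter as a replicate block, 1382 genes were called (635 higher, 747 lower), with 1 member (Kcnh2, 0.32, adjusted p = 0.0344) and 2 pore-forming genes (Kcna2 and Kcnh2). Because the letters d and g each occur in a single strain, this fit takes the strain difference from libraries e and f alone. Uty GT library d and WT library g do not enter its fold changes. The deviations of the same-letter libraries correlated at 0.11 (e) and 0.15 (f), the 2 highest of the 9 pairs. Over the 18 alternatives the 8 tested members stayed on their side of the threshold in 142 of 144 fits, the exceptions being Kcna5 with no filter and Kcnh2 with the block. The signs of Kcng2, Kcnd3 and Kcnv2, which stayed between -0.11 and 0.09, were not fixed. The cause of these shifts was not tested. Depth limits Kcng4, which rests on 79 reads in all.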

Other observations

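The 21 pore-forming Kv genes below the filter were read unevenly over the libraries, a pattern noticed after the values were seen and not tested. Uty GT library f detected 17 of them, with a summed level of 99.8 normalized counts. Uty GT libraries d and e detected 13 and 11, at 49.0 and 41.0, and the WT libraries e, f and g detected 9, 9 and 11, at 35.4, 41.2 and 47.8. Uty GT library f was the highest of the 6 for 11 of the 21 genes and Uty GT library d for 6. The same counts over all genes below the filter were not made, so nothing particular to Kv genes can be read from them. Of all genes, Uty GT library f detected 28619, against 21615 to 22917 in the other libraries. Kcnh8, an ELK channel subunit gene, had 5.29, 3.51 and 2.29 in Uty GT libraries d, e and f, against 0, 0 and 0.771 in WT libraries. These stood for 8, 3 and 2 reads, against 0, 0 and 1. Kcnh7, an ERG relative, had 1.32, 5.86 and 16.1 in Uty GT libraries d, e and f, against 2.29, 0 and 0 in WT libraries. These stood for 2, 5 and 14 reads, against 2, 0 and 0. Kcnc4 went the other way, with a mean of 5.18 normalized counts in Uty GT and 10.7 in WT, and the groups overlapped. All 3 genes were picked by their values. Uty GT library f also held reads of 781 olfactory and vomeronasal receptor genes.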
